A study of Saccharomyces cerevisiae with 36 samples.

Results

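The 43 genes described here build the yeast peroxisome or serve fatty acid breakdown inside it. They were chosen by name: 25 PEX genes, 13 enzymes and transporters of fatty acid oxidation, 3 redox enzymes of the peroxisome and the 2 regulators OAF1 and PIP2. All 43 were measured, each by 1 probe set, among 5449 genes on the array. RNA came from 36 cultures of Saccharomyces cerevisiae BY4741, in 12 groups of 3 that the series describes as independent biological triplicates. Cells growing exponentially in a minimal medium were exposed for 2 h to a dose inhibiting growth equally for all compounds, labelled IC20: 20 mg/L of the fungicide pyrimethanil, 80 mg/L of the herbicide diuron, 115 mg/L of the herbicide MCPA-ME, 160 mg/L of the insecticide carbofuran, or the chloroacetanilide herbicides alachlor and S-metolachlor at 200 and 220 mg/L. Control cultures without the compound were run beside each exposure. All cells are of this haploid MATa strain, which carries deletions in HIS3, LEU2, MET17 and URA3, so the data describe 1 genotype at 1 dose and 1 time per compound. Titles of the alachlor IC20 samples carry a (2) whose meaning no label explains.

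Peroxisomes import their enzymes folded, through receptors that recognise a targeting signal, dock at the membrane, release their cargo and are pulled back to the cytosol after ubiquitination. In yeast, fatty acid beta-oxidation takes place only in this organelle: acyl-CoA oxidase starts the cycle and makes hydrogen peroxide, which catalase breaks down, and acetyl units leave as carnitine esters or through the glyoxylate cycle. Many of these genes are repressed by glucose and induced by oleate through the Oaf1-Pip2 pair and the activator Adr1.

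Median intensity per array ran from 1319.6 to 1511.4. The 6 MATa marker genes summed to between 44530 and 95730 in every array, the 4 MATalpha markers to between 742.7 and 2047, and the 7 sporulation markers to between 607 and 2015. Of the deleted genes, URA3 stayed at or under 24.41 and MET17 at or under 68.24, LEU2 at or under 194.6, and HIS3 gave 4142 to 11320; the strain's HIS3 deletion is partial, so a probe outside it checks nothing. MCPA-ME was the most variable experiment, with a residual SD over all genes of 0.3501 on the log2 scale in its IC20 arrays and 0.2628 in its controls, against 0.1028 to 0.2619 in the other 10 groups.

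The changes of the 43 genes were mostly small. Of 258 comparisons of a gene with a pesticide, 54 passed the test (limma, Benjamini-Hochberg over 5449 genes, adjusted p under 0.05), 27 higher and 27 lower, and 16 of the 54 exceeded 1.5-fold. With the floor of 32 described below for POX1, the 3 changes over 2-fold were POX1 with carbofuran, POX1 with diuron and SPS19 with diuron. Carbofuran called 14 genes higher and 4 lower, or 41.9%, where 42.2% of all genes were called. Diuron called 8 higher and 3 lower, or 25.6% against 14.4% of all genes; of 7 sporulation markers SPR3, DIT1 and SPO11 rose and SPS1 fell in the same arrays, and the MATalpha marker STE3 rose by 1.56. MCPA-ME called 1 higher and 7 lower (18.6% against 18.6%), S-metolachlor 2 and 6 (18.6% against 24.4%) and pyrimethanil 2 and 4 (14% against 16.1%). Alachlor called 0 higher and 3 lower (6.98% against 5.03%); 1 gene was higher and 7 lower at an unadjusted limma p under 0.05, and limma in the 6 alachlor arrays alone also called 0 higher. Pooled over both directions, the shares for carbofuran, MCPA-ME, pyrimethanil and alachlor were near those of all genes. With S-metolachlor 3 of the 6 MATa markers fell, and DIT1 and SPO11 rose. STE3 rose there too, but the 4 MATalpha markers together summed to 797.1 to 824.9 against 911.8 to 1052 in the controls. STE3 and DIT1 also rose with alachlor and MCPA-ME, and SPO11 rose and SPS1 fell with MCPA-ME; the part of these marker shifts in the results was not tested.

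Split by direction, carbofuran called 14 of the 43 genes higher and 4 lower, where 18.4% and 23.7% of all genes were. The counts were 8 and 3 with diuron (8.52% and 5.84% of all genes) and 1 and 7 with MCPA-ME (9.97% and 8.61%). They were 2 and 4 with pyrimethanil (6.39% and 9.71%), 2 and 6 with S-metolachlor (10.1% and 14.4%) and 0 and 3 with alachlor (3.52% and 1.5%). With carbofuran, MCPA-ME and alachlor the calls thus leaned the other way from those of all genes. The 3 IC20 values lay beyond all 3 control values for 19 of the 43 genes with carbofuran (49.8% of all genes), 19 with diuron (40.2%), 17 with S-metolachlor (54.9%), 15 with alachlor (30.8%), 11 with pyrimethanil (41.6%) and 6 with MCPA-ME (18.9%). In a fit of each pesticide's own 6 arrays limma called 11 of the 43 genes higher and 0 lower with carbofuran (24.5% of all genes), 7 and 4 with diuron (18.4%), 1 and 4 with pyrimethanil (16.2%), 2 and 11 with S-metolachlor (37.3%) and 0 and 2 with alachlor (8.88%). With carbofuran 6 of the 43 were lower there at an unadjusted p under 0.05. The change differed from the mean change with the other 5 pesticides for 19 genes with carbofuran (41.4% of all genes), 7 with diuron (5.27%), 5 with S-metolachlor (12.7%), 4 with MCPA-ME (8.63%), 2 with pyrimethanil (8.02%; 5 with the replicate block) and 0 with alachlor (0.33%), where 7 had an unadjusted limma p under 0.05.

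**Figure D1:**
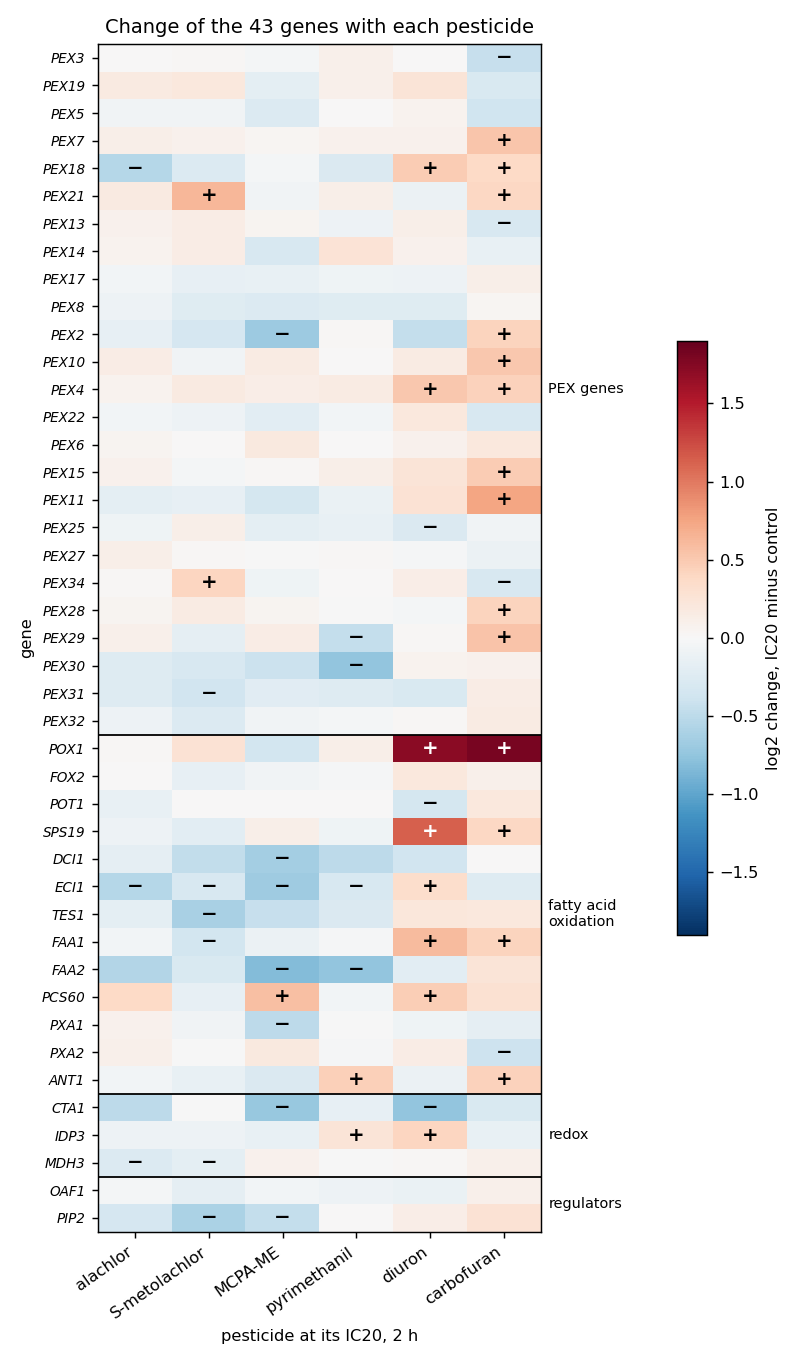
Log2 change (IC20 minus control, 3 arrays each) of the 43 genes in rows with each of 6 pesticides in columns, from blue (lower) to red (higher), with + or − where limma's adjusted p was under 0.05. The darkest cells are POX1 with carbofuran (1.80) and diuron (1.71) and SPS19 with diuron (1.14), and most + signs of PEX genes stand in the carbofuran column.

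POX1 (YGL205W), the acyl-CoA oxidase gene that opens the cycle, stood out. With carbofuran its intensity was 104.5, 126.1 and 124.1 against 26.39, 35.45 and 33.89 in the controls, and with diuron it was 113.3, 103.6 and 131.2 against 33.47, 30.84 and 41.27. These 6 IC20 arrays lay apart from every other array: the other 12 IC20 arrays ran from 30.83 to 50.17 and the 18 control arrays from 26.39 to 54.18. On the log2 scale with intensities under 32 raised to 32, POX1 rose by 1.80 ± 0.14 (SE) with carbofuran (limma adjusted p = 5.7e-10, n = 3 and 3). It rose by 1.71 ± 0.14 with diuron (limma adjusted p = 1.66e-09). The control values, 7 of the 36 POX1 values being under 32, lay within the readings of the deleted gene MET17 (9 to 68.24). The raised values lay within the readings of LEU2, also deleted (66.97 to 194.6). The direction thus rests on groups that lay apart within the range of deleted genes, and the size of the rise depends on the floor. With a floor of 100 the log2 change was 0.24 with carbofuran (limma adjusted p = 0.00109) and 0.21 with diuron (0.00897). The change with carbofuran exceeded the mean change with the other 5 pesticides by 1.45 (limma adjusted p = 1.61e-07) and that with diuron did so by 1.34 (limma adjusted p = 2.85e-06).

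FOX2 and POT1, genes of the next steps of the cycle, were not called higher with any pesticide. FOX2 (YKR009C), the multifunctional enzyme of the next steps, ran from 1413 to 2342 in the controls and from 1372 to 2307 in the IC20 arrays, with log2 changes from -0.16 to 0.19 and no call with any pesticide. With diuron FOX2 went from 1606 ± 189 to 1831 ± 101 (SD, n = 3), and with carbofuran from 1842 ± 238 to 1973 ± 197, and in both the groups overlapped. POT1 (YIL160C), the 3-ketoacyl-CoA thiolase gene, lay at the floor throughout, between 18.96 and 46.46, with 18 of 36 values under 32. At this level little can be read from its changes or their absence. With carbofuran POT1 was not called, but its change lay above the mean of the other 5 by 0.294. POT1 was called lower with diuron (-0.34, limma adjusted p = 0.00864), from 36.98, 45.81 and 43.18 to 31.02, 34.06 and 33.10, but the call was lost with a floor of 100, with 16 added in place of the floor and without control array 2 (limma adjusted p = 0.068).

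**Figure D2:**
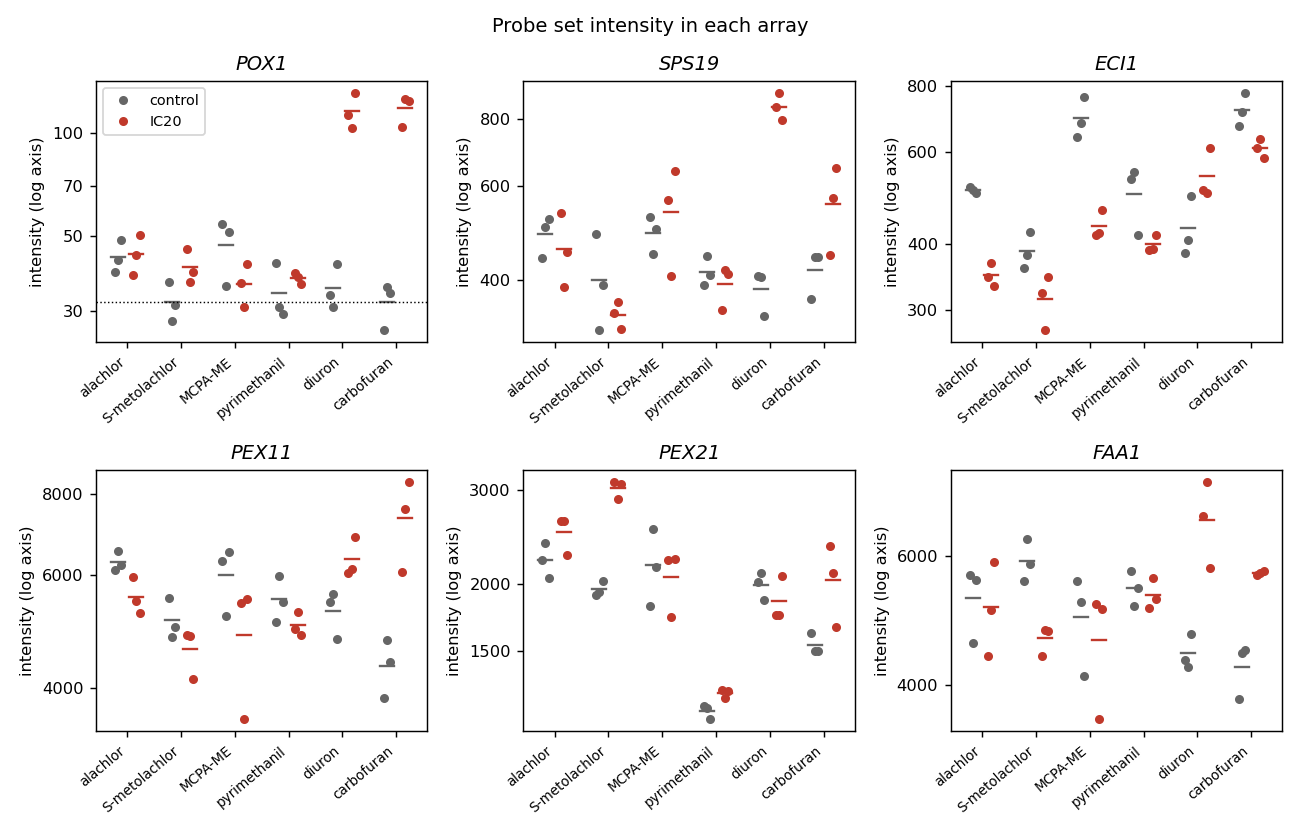
Intensity of 6 genes in each of the 36 arrays on a log axis, controls in grey and IC20 arrays in red, with bars at the group means; the dotted line marks the floor of 32. POX1 exceeds 100 in the diuron and carbofuran IC20 arrays alone, SPS19 is highest with diuron, and ECI1 lies below its own controls in the alachlor, MCPA-ME, S-metolachlor and carbofuran IC20 arrays.

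The auxiliary enzymes, which deal with unsaturated fatty acids and free the CoA, split by pesticide. SPS19 (YNL202W), the 2,4-dienoyl-CoA reductase gene, measured 841.7, 895.8 and 795.5 with diuron against 406.7, 405.6 and 342.3, with no overlap. It rose 2.20-fold (log2 change 1.14 ± 0.15, limma adjusted p = 5.42e-06), more than the mean change with the other pesticides by 1.11 (limma adjusted p = 1.14e-04). With carbofuran SPS19 rose by 0.40, from 416.6 ± 42.5 to 553.9 ± 102 (SD, n = 3), but this call was lost in the 6 carbofuran arrays alone (limma adjusted p = 0.115) and without control array 1 or 3 or IC20 array 2 or 3 (0.0516 to 0.22).

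ECI1 (YLR284C), the enoyl-CoA isomerase gene, was called with 5 pesticides, the highest number of any member. With alachlor it fell from 513.2, 506.1 and 500.7 to 346.6, 367.4 and 332.2 (log2 change -0.54, limma adjusted p = 0.00126). With MCPA-ME it fell from 639.1, 681.8 and 764.2 to 416, 420 and 465.5 (-0.68, limma adjusted p = 3.52e-05), and in neither pesticide did the groups overlap. With S-metolachlor (-0.31) and pyrimethanil (-0.31) it was called lower, and with diuron it was called higher (0.34), from 428.5 ± 57.8 to 539.5 ± 61.7. The calls with S-metolachlor, pyrimethanil and diuron were each lost without 1 array: S-metolachlor control 2 or 3 or IC20 1 or 2 (limma adjusted p = 0.056 to 0.188), pyrimethanil control 1 or 2 or any of its IC20 arrays (0.059 to 0.204), and diuron control 1 or 2 or IC20 3 (0.106 to 0.179). In the pesticide's own 6 arrays only the alachlor call was kept, and the MCPA-ME call was lost there too. Against all 18 control arrays as 1 group the calls with MCPA-ME, pyrimethanil and diuron were lost. The change of ECI1 with diuron lay above the mean of the other 5 by 0.75 (limma adjusted p = 1.19e-04). The control level of ECI1 itself ran from 388.1 ± 31.2 in the S-metolachlor experiment to 720.9 ± 52.6 in the carbofuran experiment.

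TES1, the peroxisomal acyl-CoA thioesterase gene, fell with S-metolachlor from 702.7, 647.2 and 599.1 to 384.9, 541.5 and 363.4 (-0.62, limma adjusted p = 0.0108), with no overlap; without IC20 array 1 or 3 the adjusted p was 0.0527 and 0.0748 at its lowest and highest. DCI1, a homologue of ECI1, was called lower with MCPA-ME (-0.65, limma adjusted p = 0.0421), from 216.7 ± 84 to 138.8 ± 49.8, with overlapping groups. That call was lost without control array 1 or IC20 array 2 or 3 (0.0516 to 0.316).

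Fatty acids must be joined to CoA before oxidation. FAA1 (YOR317W), the main long-chain acyl-CoA synthetase gene, measured 6805, 7584 and 5779 with diuron against 4333, 4238 and 4708, and 5657, 5698 and 5728 with carbofuran against 3839, 4426 and 4469. It rose by 0.60 with diuron (limma adjusted p = 0.00146) and by 0.43 with carbofuran (limma adjusted p = 0.00829), while with S-metolachlor it was called lower by -0.35 (limma adjusted p = 0.0443). The carbofuran call was lost without control array 1 (0.0543) and the S-metolachlor call without any 1 of its 6 arrays (0.058 to 0.149). FAA2 (YER015W), the peroxisomal synthetase for medium-chain acids, fell with pyrimethanil from 535.9, 527.8 and 407.8 to 284.2, 300.1 and 280.3 (-0.76, limma adjusted p = 0.0109; 0.0642 without control array 1). With MCPA-ME it was called lower by -0.82, from 552.2 ± 150 to 310.7 ± 69.2 (limma adjusted p = 0.00439), a call lost in the 6 MCPA-ME arrays alone. PCS60, a peroxisomal protein of the acyl-CoA synthetase type, was called higher with MCPA-ME (0.57, from 1525 ± 419 to 2220 ± 328) and diuron (0.46, from 1605 ± 228 to 2200 ± 57.2). The MCPA-ME call was lost without control array 3 (0.0843) and the diuron call without control array 2 or 3 or any of the IC20 arrays (0.069 to 0.234).

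Of the transport genes, PXA1 and PXA2 encode the subunits of the ABC transporter for long-chain acyl-CoA and ANT1 the adenine nucleotide carrier that supplies ATP. The 2 subunit genes were not called together with any pesticide. PXA2 was called lower with carbofuran (-0.40, limma adjusted p = 0.00283), from 287.6, 307.3 and 293.5 to 273, 210.8 and 198.3, while PXA1 went from 611.4 ± 39.5 to 545.5 ± 71.5 (SD, n = 3) with no call (-0.17, limma adjusted p = 0.22). The PXA2 call was lost in the 6 carbofuran arrays alone (0.0748), and against all 18 control arrays as 1 group the change of PXA2 was 0.04 (0.855). PXA1 was called lower with MCPA-ME (-0.49, limma adjusted p = 0.00218), from 377.8 ± 18 to 272.9 ± 60.2, a call lost in the 6 MCPA-ME arrays alone. ANT1 rose by 0.45 with pyrimethanil, from 1663 ± 241 to 2248 ± 25.9, and by 0.44 with carbofuran, from 1447 ± 130 to 1971 ± 255; both calls were lost in the pesticide's own 6 arrays (limma adjusted p = 0.052 and 0.0526) and without single arrays (up to 0.225 and 0.0745).

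Among the redox enzymes, CTA1 (YDR256C), the peroxisomal catalase gene, did not follow POX1. With diuron, where POX1 rose, CTA1 measured 98.04, 72.62 and 102.7 against 131.5, 135.7 and 197.8. It fell by 0.76 on the log2 scale (limma adjusted p = 0.00748), a call lost without control array 3 or IC20 array 2 (0.0711 to 0.0877). The call was also lost in the 6 diuron arrays alone and against all 18 control arrays as 1 group. These IC20 values lay within the readings of the deleted gene LEU2 (66.97 to 194.6). With carbofuran CTA1 went from 249.8 ± 18.2 to 205.7 ± 25.3 (-0.28, limma adjusted p = 0.242). With MCPA-ME it was called lower by -0.73, with 81.90 in IC20 array 2 against 172.5 and 157.8 in the others, and without that array the adjusted p was 0.0715. IDP3, the NADP-dependent isocitrate dehydrogenase gene whose product supplies the reductant for dienoyl-CoA reductase, rose with diuron from 391.6, 413.1 and 394.6 to 520.9, 542.9 and 532.6 (0.41, limma adjusted p = 4.21e-04), above the mean of the other 5 by 0.46. With pyrimethanil IDP3 was called higher by 0.24 with overlapping groups, and 4 of the 6 fits without 1 array lost this call (control 1 or 3, IC20 1 or 2; 0.107 to 0.24). MDH3, the peroxisomal malate dehydrogenase gene, was called lower with alachlor (-0.27, from 4683 ± 235 to 3895 ± 227) and S-metolachlor (-0.19, from 4224 ± 109 to 3708 ± 107). The first call was lost without control or IC20 array 2 (0.0877 to 0.0944) and the second without any control array or IC20 array 1 or 2 (0.0545 to 0.105).

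Of the regulators, PIP2 was called with 2 pesticides. OAF1 was not called with any pesticide, with log2 changes from -0.17 to 0.09. PIP2 (YOR363C), its partner, fell with S-metolachlor from 642, 755.8 and 604.8 to 429.8, 442.8 and 443.5 (-0.60, limma adjusted p = 0.00166), with no overlap, and was called lower with MCPA-ME by -0.46 (0.0832 to 0.124 without control array 1 or IC20 array 2). With diuron PIP2 changed by 0.13 and with carbofuran by 0.28 (limma adjusted p = 0.095), and neither passed the test.

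Of the 25 PEX genes, carbofuran called 10 higher and 3 lower, diuron 2 and 1, S-metolachlor 2 and 1, pyrimethanil 0 and 2, MCPA-ME 0 and 1 and alachlor 0 and 1. Carbofuran thus called 52% of the PEX genes, against 42.2% of all genes, of which 18.4% were called higher and 23.7% lower. The share of PEX genes was 12% with diuron (14.4% of all genes) and 12% with S-metolachlor (24.4%). It was 8% with pyrimethanil (16.1%), 4% with MCPA-ME (18.6%) and 4% with alachlor (5.03%). The 10 that rose were 3 of 4 import receptors, 4 of 6 genes for receptor ubiquitination and export, PEX11, PEX28 and PEX29. In the same arrays 5 of the 6 MATa marker genes fell, with log2 changes of -1.98 for AGA2 and -1.87 for BAR1, as did 4 of 7 sporulation markers; the part of these shifts in the PEX results was not tested. PEX11 (YOL147C), which promotes division of peroxisomes and is a known Oaf1-Pip2 target, measured 6065, 7582 and 8376 against 3857, 4745 and 4380. It rose 1.69-fold (log2 change 0.76 ± 0.13, limma adjusted p = 6.67e-05), more than the mean of the other 5 by 0.86 (limma adjusted p = 5.09e-05). With diuron, the other pesticide that raised POX1, PEX11 changed by 0.27 without a call.

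The receptor for the N-terminal targeting signal and its helpers rose with carbofuran, whereas the receptor for the C-terminal signal did not. PEX7 (YDR142C) rose from 1676, 1748 and 1799 to 2157, 2748 and 2636 (0.52, limma adjusted p = 3.28e-04), and its co-receptor PEX21 rose by 0.39, a call lost in the 6 carbofuran arrays alone (limma adjusted p = 0.0844). The other co-receptor, PEX18, was dim, at 48.64 ± 5.89 against 63.06 ± 1.91 (SD, n = 3), and was called higher by 0.38; this call was lost with a floor of 100 and without control array 1 or 2 or any of the IC20 arrays (0.0705 to 0.184). PEX5 went from 534.9 ± 108 to 418.3 ± 120 without a call. PEX18 was also called higher with diuron (0.49; 0.11 to 0.136 without control array 1 or 2 or IC20 array 3) and lower with alachlor (-0.55; 0.0813 to 0.18 without control array 1 or 2 or IC20 array 2 or 3).

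PEX21 (YGR239C) rose most with S-metolachlor, from 1911, 1931 and 2026 to 3115, 2887 and 3079 (0.63, limma adjusted p = 1.67e-04), and this exceeded the mean of the other 5 by 0.53 (limma adjusted p = 0.0051). Its control levels differed between experiments, from 1158 in the pyrimethanil to 2218 in the alachlor controls.

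Of the 6 genes for ubiquitination and export of receptors, 4 rose with carbofuran, where 18.4% of all genes were called higher. PEX10 (YDR265W), a RING ubiquitin ligase gene, rose from 1042, 1341 and 1280 to 1680, 1829 and 1704 (0.52, limma adjusted p = 1.41e-05). PEX4, the ubiquitin-conjugating enzyme gene, rose by 0.43 with carbofuran and by 0.51 with diuron, from 539.3, 607.7 and 597.5 to 813.3, 797.5 and 879.7 (limma adjusted p = 3.76e-04). PEX15, the membrane anchor of the exporting ATPase, rose by 0.48 with carbofuran, whereas PEX6, a subunit of that ATPase, changed by 0.20 and PEX22, the anchor of Pex4, by -0.31 without a call. With diuron PEX2 measured 1085, 1095 and 1035 against 1584, 1466 and 1372, with no overlap; its change of -0.46 had a limma adjusted p of 0.0501, which was 0.012 with the replicate block and 0.00932 in the 6 diuron arrays alone. PEX2, another RING ligase gene, rose by 0.42 with carbofuran and was called lower by -0.69 with MCPA-ME. The carbofuran call was lost without control array 1 or 3 or IC20 array 2 or 3 (limma adjusted p = 0.0504 to 0.123). It was also lost against all 18 control arrays as 1 group (limma adjusted p = 0.287). The MCPA-ME call was lost in the 6 MCPA-ME arrays alone (limma adjusted p = 0.436).

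Of the 25 PEX genes, only 3 were called lower with carbofuran, where 23.7% of all genes were. PEX3, which inserts membrane proteins together with Pex19, fell by 0.44 on the log2 scale, from 1135 ± 102 to 849.4 ± 186 (SD, n = 3) with overlapping groups. PEX13, of the docking complex, fell by 0.31 and PEX34, of peroxisome number control, by 0.30. None of the 3 was called in the 6 carbofuran arrays alone (limma adjusted p = 0.107, 0.0684 and 0.121). Without IC20 array 2 PEX3 was not called (0.0752), PEX13 was not called without IC20 array 2 or 3 (0.0516 to 0.0519), and PEX34 was not called without control array 1 or IC20 array 3 (0.0938 to 0.21). PEX34 rose with S-metolachlor, from 2322, 2846 and 2753 to 3436, 3528 and 3464 (0.40, limma adjusted p = 0.00585; 0.0526 without control array 1). Of the remaining docking genes, PEX14, PEX17 and PEX8 had no call with any pesticide.

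The genes for peroxisome size and contact with the endoplasmic reticulum, PEX28 to PEX32, were called both ways. With carbofuran PEX28 rose by 0.42 and PEX29 rose by 0.54, from 533, 541.4 and 530.5 to 733.3, 769.5 and 825.6 (limma adjusted p = 0.00659). With pyrimethanil PEX30 (YLR324W) fell from 618.8, 450.8 and 557.2 to 330.4, 268.7 and 365.9 (-0.75, limma adjusted p = 0.00876), and PEX29 was called lower by -0.46. Without control array 1 or IC20 array 2 PEX30 was not called (0.0614 to 0.065), and PEX29 was not called without control array 1 or 3 or any of the IC20 arrays (0.0809 to 0.175). PEX31 fell with S-metolachlor from 996.4 ± 34.5 to 777.5 ± 23.2 (SD, n = 3; -0.36; 0.0626 without IC20 array 3). PEX25, which acts with Pex11 in division, was called lower with diuron (-0.28; 0.08 to 0.253 without control array 3 or IC20 array 1 or 2).

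Set side by side, the PEX genes and the fatty acid oxidation genes had small median shifts. The median log2 change of the 25 PEX genes was 0.14 with carbofuran and 0.07 with diuron, and that of the 13 oxidation enzymes and transporters was 0.20 and 0.19, where all 5449 genes had medians of -0.015 and 0.001. With MCPA-ME the medians were -0.07 for the PEX genes and -0.27 for the oxidation genes, and with S-metolachlor -0.04 and -0.16, against -0.017 and -0.024 for all genes. With diuron 6 of the 13 oxidation genes were called and 3 of the 25 PEX genes, where 14.4% of all genes were, and with carbofuran 5 and 13, where 42.2% were. Pooled over both directions, the shares of the PEX genes with diuron (12%) and of the oxidation genes with carbofuran (38.5%) were near those of all genes. The difference between the sets was not tested, because the genes were chosen with earlier results known.

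**Figure D3:**
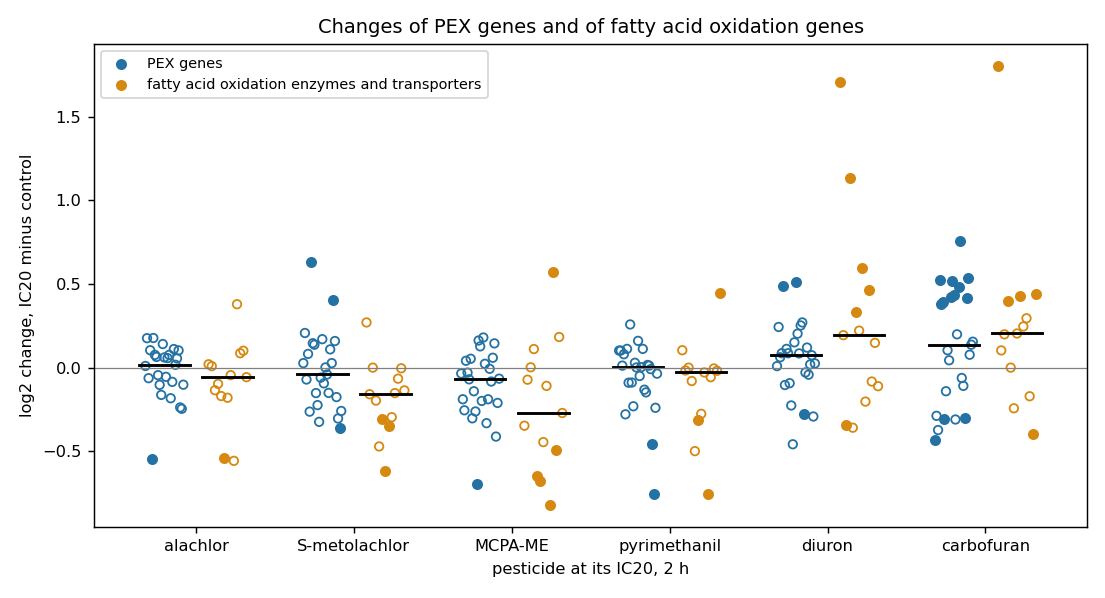
Log2 change (IC20 minus control) of each PEX gene in blue and each fatty acid oxidation enzyme or transporter in orange with 6 pesticides; filled points passed limma's test, open points did not, and black bars are medians. The medians lie between -0.27 and 0.20, while single oxidation genes reach 1.80 with carbofuran and 1.71 with diuron.

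The MCPA-ME calls rest on the spread estimated over all 36 arrays. With only the 6 arrays of MCPA-ME fitted, limma called 0 of the 43 genes, where 1.16% of all genes were called, with 0 higher and 3 lower at an unadjusted p under 0.05. IC20 array 2, the array farthest from its group, held the lowest of the 6 values for 28 of the 43 genes (65.1%), against 33.4% of all genes, and for 6 of the 7 genes called lower. Without it and carbofuran IC20 array 1, chosen after seeing the data, MCPA-ME called 2 genes higher and 7 lower, with DCI1, CTA1 and PIP2 no longer called.

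Alachlor and S-metolachlor are both chloroacetanilide herbicides, given at 200 and 220 mg/L, so their doses differed. The log2 changes were -0.54 and -0.31 for ECI1, -0.27 and -0.19 for MDH3, 0.18 and 0.63 for PEX21, 0.02 and 0.40 for PEX34, and -0.32 and -0.60 for PIP2, with alachlor first. ECI1 and MDH3 were called lower with both. Both calls with S-metolachlor, and that of MDH3 with alachlor, were lost without single arrays. ECI1 was also called lower with MCPA-ME and pyrimethanil. The difference between alachlor and S-metolachlor was not tested.

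The control groups differed among themselves. By limma's F test 36 of the 43 genes (83.7%) had control levels that differed between the 6 experiments, against 78.9% of all genes. The catalase gene CTA1 had the widest range of control means, from 81.15 ± 5.91 in the S-metolachlor to 249.8 ± 18.2 in the carbofuran experiment (3.08-fold, limma F test adjusted p = 1.29e-06), so its IC20 levels can be read only against their own controls. PEX19 ran from 631.6 to 1669 and TES1 from 649.7 to 1418. The regulators OAF1 and PIP2 were not called, nor were PEX7, PEX15, PEX18, PEX31 and SPS19.

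Other genes of the pathway, from lists set up with earlier results known, held larger changes. Of 5 carnitine shuttle genes, which carry acetyl units out of the peroxisome and into the mitochondrion, 4 rose with carbofuran, 3 with diuron, 2 each with alachlor, S-metolachlor and pyrimethanil and 1 with MCPA-ME, where 18.4%, 8.52%, 3.52%, 10.1%, 6.39% and 9.97% of all genes were called higher, in this order of pesticides; YAT1 fell with S-metolachlor and pyrimethanil. CRC1, the mitochondrial carnitine carrier gene, rose with all 6 pesticides, by 0.985 to 2.52, and YAT2, a carnitine acetyltransferase gene, with 5 of 6. CIT2, the peroxisomal citrate synthase gene of the glyoxylate cycle, also rose with all 6, by 0.22 to 0.72. CRC1 and CIT2 thus also rose with the 4 pesticides in which POX1 was not called.

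Of 11 measured other matrix enzymes, CIT2 among them, carbofuran called 4 higher and 1 lower, S-metolachlor 2 and 4, and the other 4 pesticides 1 or 2 higher and 0 to 2 lower. Over both directions, the share called with carbofuran, 45.5%, was near the 42.2% of all genes, and with S-metolachlor it was 54.5% against 24.4%. It was 18.2% with alachlor (5.03% of all genes), diuron (14.4%) and pyrimethanil (16.1%), and 27.3% with MCPA-ME (18.6%). STR3, a cystathionine beta-lyase gene, rose with pyrimethanil by 2.37, S-metolachlor by 1.81 and alachlor by 1.22. MLS1, a malate synthase gene, rose by 1.08 with carbofuran. Of 8 measured genes of biogenesis and dynamics, carbofuran called 3 higher and 3 lower (75% against 42.2% of all genes), among them ATG36, the receptor for peroxisome breakdown, which rose by 0.94, and INP2, of peroxisome movement to the bud, which rose by 0.54. MCPA-ME called 1 of the 8 higher (12.5% against 18.6%) and the other 4 pesticides called 0 in limma. At an unadjusted p under 0.05 alachlor had 1 of these genes higher and 1 lower, pyrimethanil 0 and 3, and diuron and S-metolachlor 0, and in each pesticide's own 6 arrays these 4 also called 0.

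Of 10 genes under Adr1 or glucose repression outside the peroxisome, carbofuran called 8 higher and 1 lower (90% against 42.2% of all genes), diuron 1 and 3 (40% against 14.4%), pyrimethanil 1 and 4 (50% against 16.1%), S-metolachlor 3 and 1 (40% against 24.4%), MCPA-ME 0 and 2 (20% against 18.6%) and alachlor 1 and 0 (10% against 5.03%). ADR1 itself rose with carbofuran by 1.20, ADH2, the glucose-repressed alcohol dehydrogenase gene, by 2.31, and ALD4, a mitochondrial aldehyde dehydrogenase gene, by 2.06. With diuron ALD4 fell by 1.15 and GUT2, of glycerol use, fell by 0.68, while POX1 rose with both pesticides. With pyrimethanil, where POX1 was not called, ADR1 rose by 0.83 while ADH2, ALD4, GUT1 and GUT2 fell, and with MCPA-ME ALD4 and GUT2 fell.

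**Figure D4:**
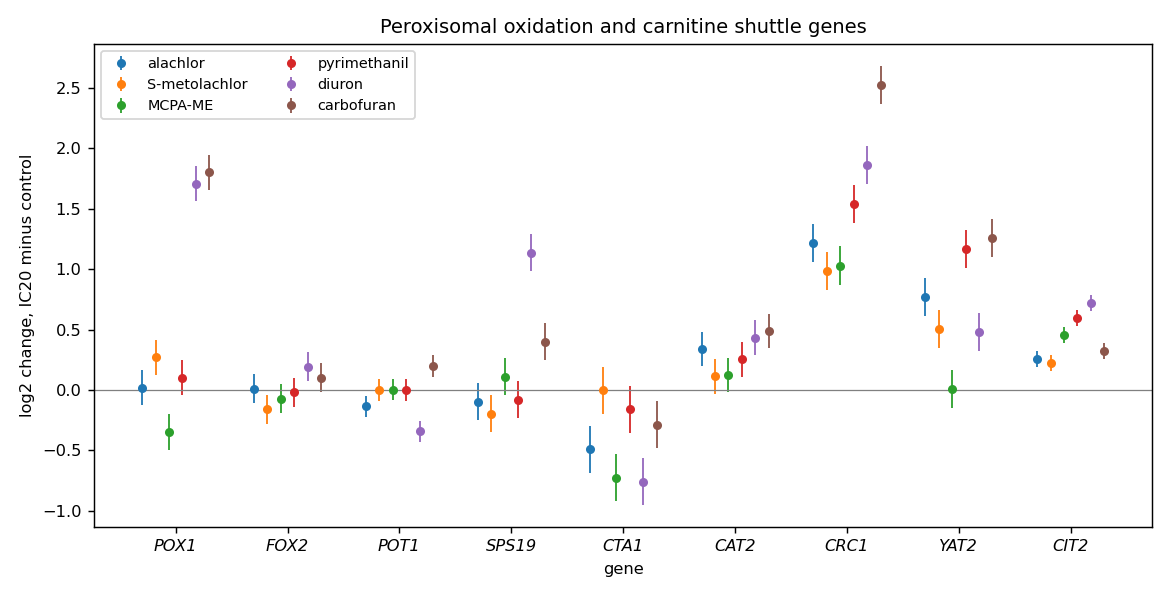
Log2 change (IC20 minus control) with its standard error for 5 members on the left and 4 genes of the carnitine shuttle and glyoxylate cycle on the right, with 6 pesticides in colour. POX1 is high with diuron and carbofuran, FOX2 stays between -0.16 and 0.19, and CRC1 lies between 0.985 and 2.52.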

How the data were processed

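Total RNA of 36 yeast cultures was hybridised to Affymetrix Yeast Genome 2.0 arrays. The deposited values are linear intensity per probe set; per the submitters' processing notes the authors used Affymetrix Expression Console, while its version, the summary method and the normalization are not stated there. The deposited intensity values were raised to a floor of 32 and log2 transformed here. Of 5716 probe sets, 5498 had 1 gene in the platform annotation and 218 had none; the probe set with the highest mean was kept for 47 genes with several, leaving 5449 genes.

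With limma 3.58.1 (R 4.3.3), a model of 12 group means was fitted to the 36 arrays, with each IC20 group set against its own control, each change against the mean of the other 5, and an F test over the 6 control groups. P-values were Benjamini-Hochberg adjusted over 5449 genes with a threshold of 0.05. The script was tested on simulated data. The number of arrays limits the precision.

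Values per array are given for up to 6 genes per pesticide and direction with the largest called change and no overlap; the others are given by means and ranges. The members and lists were chosen with earlier results of these data known. Every pair of arrays with equal replicate number had a correlation of deviations over 0.1 with diuron (0.352 to 0.402) and pyrimethanil (0.173 to 0.38). Correlations between unequal numbers were not computed, so whether equal numbers pair the arrays is not settled. Alternatives changed the normalization, the floor, the filter, the arrays in the fit, the controls, the variance model and the replicate block. Some listed genes of the pathway were not analysed here.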

Additional observations from a re-analysis of the deposited data

Results flagged for a closer look

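The change of 24 genes with at least 1 pesticide differed from their mean change with the other 5 (limma contrast in the fit over all 36 arrays, Benjamini-Hochberg adjusted p under 0.05). The values below are that difference on the log2 scale. Contrasts of different pesticides share arrays, so they are not independent.

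With carbofuran 19 of the 43 genes differed, where 41.4% of all genes did: the change was more positive for POX1 (1.453), PEX11 (0.861), FAA2 (0.773), PEX2 (0.743), PEX29 (0.609), PIP2 (0.527), PEX18 (0.507), ANT1 (0.467), PEX7 (0.444), PEX10 (0.437), FAA1 (0.415), PEX31 (0.406), PEX15 (0.398), PEX28 (0.375), POT1 (0.294) and more negative for PXA2 (-0.477), PEX3 (-0.458), PEX34 (-0.396), PEX13 (-0.369). With diuron 7 of the 43 genes differed, where 5.27% of all genes did: the change was more positive for POX1 (1.338), SPS19 (1.109), ECI1 (0.751), PEX18 (0.635), FAA1 (0.617), IDP3 (0.457) and more negative for POT1 (-0.353). With MCPA-ME 4 of the 43 genes differed, where 8.63% of all genes did: the change was more negative for POX1 (-1.128), PEX2 (-0.594), ECI1 (-0.465), PXA1 (-0.446). With pyrimethanil 2 of the 43 genes differed, where 8.02% of all genes did: the change was more negative for POX1 (-0.587), PEX29 (-0.584). With S-metolachlor 5 of the 43 genes differed, where 12.7% of all genes did: the change was more positive for PEX21 (0.529), PEX34 (0.449) and more negative for PIP2 (-0.524), FAA1 (-0.518), PEX10 (-0.254). For alachlor 0 genes passed limma's test, where 0.33% of all genes did, with 1 more positive and 6 more negative at an unadjusted p under 0.05. Several of these genes were not themselves called with the pesticide named, among them PEX31, FAA2 and PIP2 with carbofuran and POX1 with MCPA-ME and pyrimethanil; the mean of the others then includes both pesticides in which POX1 rose.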

How the results depend on the processing

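The fit with the replicate number as a block kept all calls with diuron and pyrimethanil, where the deviations of every pair of equal number correlated by more than 0.1. With diuron it added PEX2 (limma adjusted p = 0.012), and with pyrimethanil it gave 5 genes that differed from the other pesticides in place of 2. Elsewhere at least 1 pair of equal number lay under 0.1 (correlation of their deviations -0.711 to 0.214 for alachlor, 0.001 to 0.486 for carbofuran, 0.027 to 0.409 for MCPA-ME and 0.047 to 0.286 for S-metolachlor). Some of these pairs were as close as those of diuron, so whether the numbers pair the arrays is not settled. For these pesticides the block lost the FAA1 call with S-metolachlor (limma adjusted p = 0.0694), called 11 genes lower with MCPA-ME in place of 7, and gave 1 gene that differed from the other pesticides for alachlor and 8 for S-metolachlor, in place of 0 and 5.

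Of the 54 calls, 14 were kept under every alternative run on them, 17 or 18 settings each: ECI1 with alachlor, PEX4, PEX7, PEX10, PEX11, PEX15, PEX28 and POX1 with carbofuran, FAA1, PEX4, POX1 and SPS19 with diuron, and PEX21 and PIP2 with S-metolachlor. None of the calls with MCPA-ME and pyrimethanil was. For 7 of the 14 (ECI1, both PEX4, both POX1, SPS19 and PIP2) the fit without the dimmest 25% of genes gave no value, since they are among those left out. The 1 reversed change was PXA2 with carbofuran, 0.041 against all 18 controls as 1 group. The causes of the moves below were not tested, except that leaving out the dimmest 25% of genes removed 19 of the 43. Counts in this section, and counts at an unadjusted p, are given without the share of all genes passing under the same setting. They therefore describe the 43 genes alone and do not show whether these genes differed from other genes.

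Without the dimmest 25%, genes called lower were 1 with alachlor, 1 with MCPA-ME and 0 with pyrimethanil, and genes called higher were 9 with carbofuran, 2 with diuron and 1 with pyrimethanil; differences from the other pesticides numbered 1 for diuron, 1 for MCPA-ME, 0 for pyrimethanil and 3 for S-metolachlor, control differences 20, and the PEX median with S-metolachlor was 0.027. In the pesticide's own 6 arrays 0 genes were lower with carbofuran, 0 higher and 0 lower with MCPA-ME, 1 higher with pyrimethanil and 11 lower with S-metolachlor. With all 18 controls as 1 group, alachlor called 4 higher and 5 lower, MCPA-ME 2 higher, pyrimethanil 0 higher and S-metolachlor 10 lower. Differences from the others numbered 7 for alachlor, 7 for pyrimethanil and 16 for S-metolachlor. PEX medians were 0.127 (alachlor), 0.01 (diuron) and -0.06 (pyrimethanil), and oxidation gene medians 0.037 (diuron) and -0.279 (S-metolachlor). Carbofuran again called 18 genes there, but only 10 were shared with the calls against its own control. Pyrimethanil again called 6, with 1 shared. Carbofuran lost PEX3, PEX21, PEX13, PEX2, PEX29, FAA1, PXA2 and ANT1, and pyrimethanil lost PEX29, PEX30, ECI1, ANT1 and IDP3. Diuron lost POT1, ECI1, CTA1 and IDP3, MCPA-ME lost ECI1 and CTA1, and S-metolachlor lost FAA1. With array weights alachlor called 3 higher and 7 lower, carbofuran 9 lower, diuron 14 higher and 7 lower, MCPA-ME 6 higher, pyrimethanil 8 lower and S-metolachlor 5 higher and 13 lower; differences numbered 6 (alachlor), 22 (diuron), 13 (pyrimethanil) and 20 (S-metolachlor), and the PEX median with pyrimethanil was -0.042. Median centring gave 2 lower with pyrimethanil, 1 difference for alachlor and pyrimethanil medians of 0.06 (PEX) and 0.03 (oxidation). Quantile normalization gave PEX medians of 0.022 (diuron) and 0.035 (pyrimethanil). A floor of 100 gave 4 differences for diuron and 1 for pyrimethanil, 16 added in place of the floor 1 for alachlor, and limma's trend and robust options 1 gene higher with pyrimethanil. Without the 2 arrays farthest from their groups, carbofuran IC20 array 1 and MCPA-ME IC20 array 2, an alternative chosen after seeing the data, 7 genes were lower with alachlor, 8 with carbofuran and 5 with diuron, 2 were higher with MCPA-ME, differences numbered 2 (alachlor), 12 (diuron), 8 (pyrimethanil) and 15 (S-metolachlor), and the PEX median with carbofuran was 0.258.

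Leaving out 1 array of the pair of groups at a time, genes called higher numbered 0 to 0 with alachlor, 10 to 16 with carbofuran, 5 to 7 with diuron, 0 to 2 with MCPA-ME, 0 to 2 with pyrimethanil, 1 to 2 with S-metolachlor. Genes called lower numbered 1 to 3 with alachlor, 2 to 6 with carbofuran, 1 to 3 with diuron, 5 to 12 with MCPA-ME, 0 to 4 with pyrimethanil, 2 to 4 with S-metolachlor. Differences from the other pesticides numbered 0 to 0 with alachlor, 15 to 25 with carbofuran, 5 to 6 with diuron, 4 to 7 with MCPA-ME, 0 to 4 with pyrimethanil, 2 to 6 with S-metolachlor. Control differences numbered 31 to 36. The PEX median ran from -0.044 to 0.047 with alachlor, 0.098 to 0.258 with carbofuran, 0.034 to 0.108 with diuron, -0.073 to -0.049 with MCPA-ME, -0.046 to 0.021 with pyrimethanil, -0.073 to 0.03 with S-metolachlor. The oxidation gene median ran from -0.107 to -0.031 with alachlor, 0.127 to 0.283 with carbofuran, 0.158 to 0.259 with diuron, -0.37 to -0.053 with MCPA-ME, -0.109 to -0.02 with pyrimethanil, -0.231 to -0.088 with S-metolachlor. Signal limits POX1, POT1 and PEX18, which had values under the floor of 32.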
